A study of Mus musculus with 18 samples.

Results

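The phospholipase C isoforms of the mouse heart are described here through 10 genes, Plcb1, Plcb2, Plcb3, Plcb4, Plcg1, Plcg2, Plcd1, Plcd3, Plce1 and Plcl1, out of 23457 genes in the count table. They are the gene that the vectors carry and 9 further phospholipase C genes of the mouse, chosen by name with earlier results of these data known. All 10 passed the filter on low counts and were among the 12281 genes tested. RNA was sequenced from the hearts of 18 male C57BL/6 mice at 17 weeks of age, 6 given rAAV6-PLCβ1b, 6 given rAAV6-PLCβ1a and 6 given rAAV6-blank. The viruses were injected into the tail vein at 8 weeks of age and the hearts were taken 9 weeks later. The blank virus carries a promoter without a protein product, so that every animal of the study received an adeno-associated virus and no heart was without one. PLCβ1a and PLCβ1b are splice variants of Plcb1, and both vectors carry them with a FLAG tag. The labels name the tissue as both ventricles of the heart, whereas the methods of the study name the left ventricle. The RNA came from whole tissue, so that fewer cells of a type and less RNA per cell cannot be told apart in any value below.

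Phospholipase C enzymes cleave the membrane lipid phosphatidylinositol bisphosphate into inositol trisphosphate, which releases calcium through its receptors, and diacylglycerol, which activates protein kinase C and related effectors. The β isoforms are activated by Gq-coupled receptors, such as those for noradrenaline, endothelin and angiotensin, and some of them also by Gβγ. The γ isoforms are activated by tyrosine phosphorylation, the δ isoforms respond to calcium, and PLCε is activated by Ras family proteins. In heart muscle this pathway is known for its part in contractility and in hypertrophic growth.

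Plcb1 lies on the plus strand of chromosome 2 (chr2:134786164-135475258, mm10). PLCβ1a is encoded by 32 annotated exons and PLCβ1b by 33, because a single extra exon of 118 bases (chr2:135399249-135399366) enters the PLCβ1b transcript near its 3′ end and brings its own stop codon. PLCβ1a therefore has 1216 residues and PLCβ1b 1173, and they differ only in the carboxyl-terminal tail, the last 75 residues of PLCβ1a and the last 32 of PLCβ1b. Both tails are shown because they are what distinguishes the proteins the vectors express, together with the shared exon before the switch (87 bases, chr2:135387798-135387884). The PLCβ1b tail is at chr2:135399249-135399347 and the PLCβ1a tail at chr2:135472053-135472280. The sequences are those of the mouse reference transcripts (GENCODE, mm10), read 5′ to 3′ on the plus strand, with the stop codon in capitals. The sequences of the vectors themselves are not given in the sources used here.
shared exon: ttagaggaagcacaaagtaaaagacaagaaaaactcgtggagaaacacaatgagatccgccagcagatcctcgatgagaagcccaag
PLCβ1b tail: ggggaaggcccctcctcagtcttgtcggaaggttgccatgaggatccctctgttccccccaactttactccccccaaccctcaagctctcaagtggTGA
PLCβ1a tail: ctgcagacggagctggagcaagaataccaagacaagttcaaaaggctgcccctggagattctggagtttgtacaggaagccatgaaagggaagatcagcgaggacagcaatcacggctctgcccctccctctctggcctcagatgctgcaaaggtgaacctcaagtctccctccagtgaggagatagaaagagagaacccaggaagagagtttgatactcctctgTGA

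**Figure D1:**
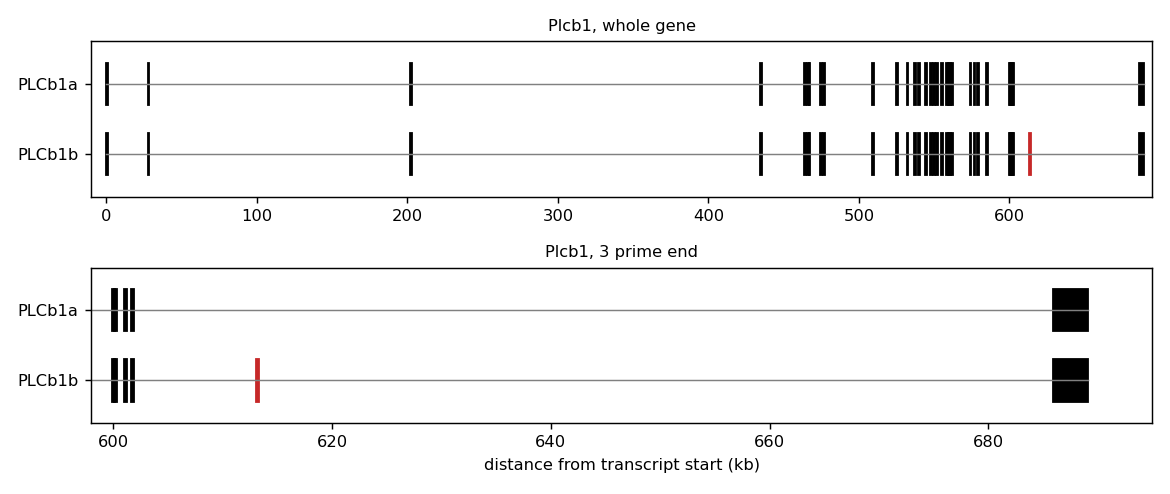
Exons of the annotated PLCβ1a and PLCβ1b transcripts, placed by distance from the transcript start in kb, with the whole gene above and its 3′ end below. Exon positions are to scale, but short exons are drawn wider than their length so that they can be seen. The extra exon of PLCβ1b, 118 bases long, is drawn in red, and all other exons are shared.

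The extra exon is 1.66% of the 7116 exon bases of Plcb1, and the deposited values are 1 number per gene. They do not separate PLCβ1a from PLCβ1b, nor vector transcripts from those of the mouse gene. Each Plcb1 value below is therefore the sum of all of these.

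Values are given on 2 scales. FPKM, fragments scaled to transcript length and library size, are as deposited and are used to compare genes with each other. CPM, counts relative to library size with TMM normalization, are used to compare the groups, because the test was run on those counts. Total counts per heart ran from 13246339 to 24155465, of which mt-Rnr2, a mitochondrial ribosomal RNA, took 53.5 to 57.5%, so that 3908354 to 7591558 counts fell on nuclear genes. The 6 cardiomyocyte markers summed to between 10804 and 12609 FPKM in all 18 hearts, against 10.6 to 15.7 FPKM for 7 leukocyte markers. Fibroblast markers summed to 156 to 197 FPKM, endothelial markers to 79.9 to 103 and mural markers to 107 to 126, with 6 genes in each list. Groups were compared with edgeR's quasi-likelihood test in a single model of all hearts, adjusted by Benjamini-Hochberg over all 12281 genes to give the false discovery rate (FDR). An FDR under 0.1 was the threshold for a call.

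In blank hearts the isoforms covered a wide range of levels. Plcb4, a Gq-activated β isoform, was highest at 8.39 ± 0.762 FPKM (SD, n = 6), followed by Plcg1, the broadly expressed γ isoform, at 6.10 ± 0.497. Plce1, the Ras-regulated isoform, had 3.81 ± 0.312 FPKM. Plcd1, a calcium-sensitive δ isoform, had 2.51 ± 0.262 and Plcb3, another Gq-activated isoform, 2.31 ± 0.271. These last 2 could not be ordered, since Plcd1 was above Plcb3 in 4 of 6 blank hearts and in 9 of all 18.

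Below these came Plcg2, the γ isoform best known from B cells and platelets, at 1.58 ± 0.274 FPKM. Plcd3, a further δ isoform, had 1.15 ± 0.0828 and Plcb1 0.986 ± 0.113. Plcl1, a phospholipase C-like protein that lacks lipase activity, had 0.582 ± 0.102, and Plcb2, the β isoform of blood cells, was lowest at 0.141 ± 0.0489. The ranges of Plcg2 and Plcd3 overlapped, as did those of Plcd3 and Plcb1, although in each of the 6 blank hearts the first of each pair was higher. Apart from these pairs and that of Plcd1 and Plcb3, neighbours in the order were separated without overlap, by ratios of the means from 1.38 (Plcb4 over Plcg1) to 4.13 (Plcl1 over Plcb2). Dividing CPM by the annotated exon length gave the same order, again with Plcd1 and Plcb3 inseparable (3 of 6 hearts).

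**Figure D2:**
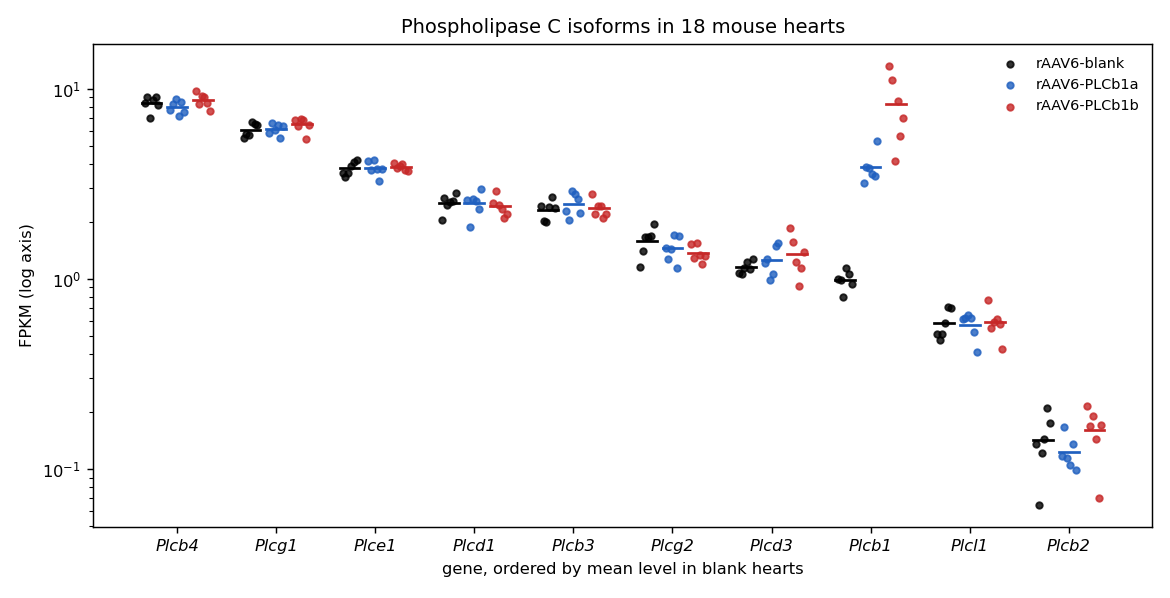
FPKM on a log axis for the 10 isoforms, ordered by their mean in blank hearts. Each point is a heart, black for rAAV6-blank, blue for rAAV6-PLCβ1a and red for rAAV6-PLCβ1b (6 each), and bars are group means. Plcb1 is the gene whose PLC hearts separate from blank hearts, with means of 0.986, 3.86 and 8.28 FPKM in blank, PLCβ1a and PLCβ1b hearts. PLCβ1b heart 8 lies within the PLCβ1a range.

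Plcb1 was higher in both PLC groups than in blank hearts, and higher with PLCβ1b than with PLCβ1a. In blank hearts 26, 30, 32, 33, 34 and 36 it had 6.20, 6.81, 5.43, 6.89, 5.98 and 6.25 CPM. In PLCβ1a hearts 7, 9, 11, 13, 14 and 21 it had 17.8, 22.0, 22.5, 19.8, 22.0 and 29.3 CPM. In PLCβ1b hearts 4, 6, 8, 10, 16 and 17 it had 69.99, 62.1, 23.2, 50.7, 34.03 and 41.6 CPM. No PLC heart overlapped a blank heart, and 5 of 6 PLCβ1b hearts were above every PLCβ1a heart, the exception being heart 8, which lay within the PLCβ1a range.

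The log2 fold change of Plcb1 against blank was 2.90 for PLCβ1b (SE 0.20, edgeR FDR 4.6e-10) and 1.82 for PLCβ1a (SE 0.21, edgeR FDR 1.6e-05). Exact two-sided permutation tests of the CPM gave p = 0.0022 for each group of 6 against blank, the smallest p that 6 hearts against 6 can give. Plcb1 is the gene that the vectors carry, so this comparison checks only whether a heart is labelled PLC or blank. No heart went against that part of its label. Which variant a heart received cannot be checked, because the values do not separate PLCβ1a from PLCβ1b. Between PLCβ1b and PLCβ1a hearts the log2 difference was 1.09 (95% interval 0.74 to 1.43, edgeR FDR 0.0092), with an exact permutation p of 0.0043. That call did not hold with every method, as the edgeR FDR was 0.801 when the spread was estimated robustly and limma on log2(FPKM + 0.1) gave an FDR of 0.620.

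The hearts also differed within each PLC group, and more so where Plcb1 was higher. The coefficient of variation of CPM was 8.65% in blank hearts, where counting error alone gives 9.40%. It was 17.4% in PLCβ1a and 37.3% in PLCβ1b hearts, where counting error gives 4.92% and 3.34%. Single hearts had 71 to 140 Plcb1 counts with blank virus, 275 to 570 with PLCβ1a and 463 to 1598 with PLCβ1b. PLCβ1b hearts thus ranged 3-fold, from 23.2 to 69.99 CPM, under the same vector.

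The size of the fold also depended on the scale. The ratio of group means to blank was 3.55 for PLCβ1a and 7.50 for PLCβ1b in CPM, and 3.92 and 8.40 in FPKM. FPKM per unit of CPM per exon kilobase was 1.12 ± 0.0899 with blank virus, 1.24 ± 0.0615 with PLCβ1a and 1.25 ± 0.0599 with PLCβ1b. Of the 7116 exon bases of Plcb1, 3648 (51.3%) are coding, and which untranslated bases the vectors carry is not given in the sources used here. Those 3648 bases are the coding length of PLCβ1a, and PLCβ1b has 3519. If the counts above the blank mean are divided by 3648 coding bases for both variants, the folds per length become 5.97 for PLCβ1a and 13.7 for PLCβ1b. This last calculation was added after the data were seen, and the cause of the shift between scales was not tested.

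Plcb1 moved from the lower end of the isoforms to the upper end. It was 8th of the 10 by FPKM in 6 of 6 blank hearts. It was 3rd in 3 PLCβ1a hearts and 4th in the other 3. Among PLCβ1b hearts it was 1st in hearts 4 and 6, 2nd in 3 hearts and 3rd in heart 8. In hearts 4 and 6 it thus passed Plcb4, the highest isoform of blank hearts. By CPM per exon kilobase some of these ranks were lower. Plcb1 was then 4th in PLCβ1a hearts 7, 9, 11, 13 and 14 and 3rd in heart 21. Among PLCβ1b hearts it was still 1st in hearts 4 and 6, but 3rd in hearts 10, 16 and 17 and 4th in heart 8.

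The summed level of the 10 isoforms was 27.6 ± 1.93 FPKM with blank virus, 30.2 ± 1.26 with PLCβ1a and 35.5 ± 4.79 with PLCβ1b (n = 6 each). Without Plcb1 the sums were 26.6 ± 1.86, 26.4 ± 0.840 and 27.3 ± 2.01 FPKM, with overlapping ranges, and their differences were not tested. Plcb1 made up 3.57 ± 0.301% of the sum with blank virus, 12.7 ± 1.99% with PLCβ1a and 22.7 ± 6.55% with PLCβ1b. The highest share, 30.3%, was in a PLCβ1b heart, and the lowest of that group was 12.8%.

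**Figure D3:**
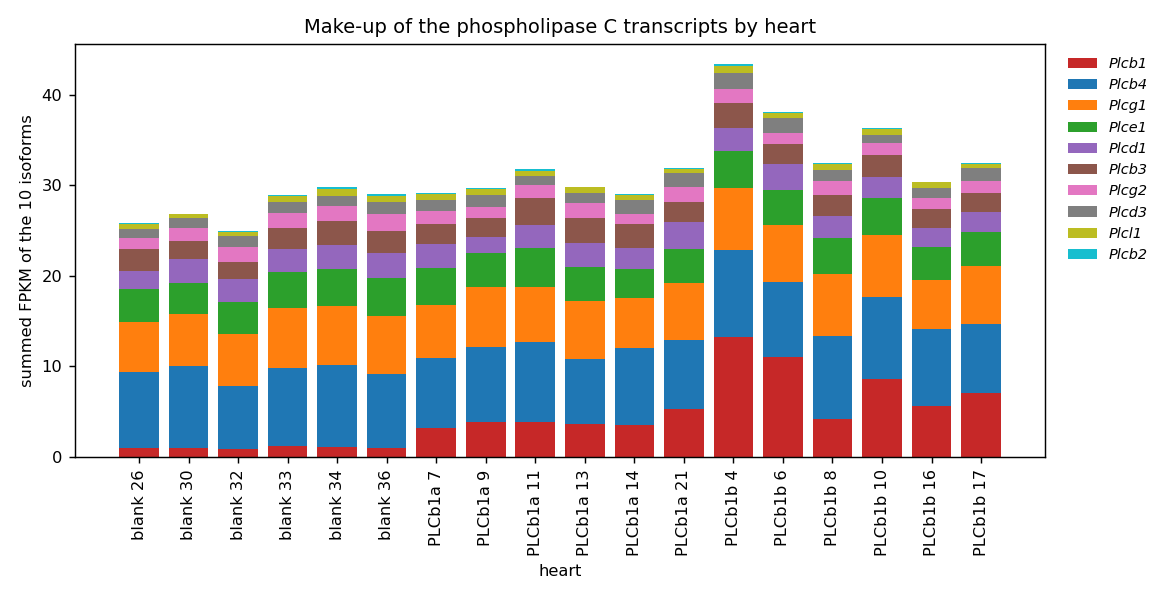
Summed FPKM of the 10 isoforms in each of 18 hearts, stacked by gene. The red segment, Plcb1, grows from a mean of 0.986 FPKM in blank hearts to 8.28 in PLCβ1b hearts, while the segments of the other 9 together have means of 26.6, 26.4 and 27.3 FPKM in the blank, PLCβ1a and PLCβ1b groups.

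Of the 10 isoforms, 1 was called between PLCβ1b and blank hearts, Plcb1, where 0.0977% of all genes tested were called. The same gene was the only member called between PLCβ1a and blank (0.0814% of all genes), between PLCβ1b and PLCβ1a (0.00814%) and between both PLC groups and blank (0.195%). At an unadjusted p under 0.05, again only Plcb1 passed in each comparison, where 7.43%, 8.81%, 4.56% and 9.38% of all genes passed. Both comparisons with blank share the same 6 blank hearts and are not independent. Over all 28 fits made with the alternatives and with single hearts left out, the other 9 isoforms gave 990 values, of which 0 were called by edgeR, DESeq2 or limma and 6 had an unadjusted p under 0.05.

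**Figure D4:**
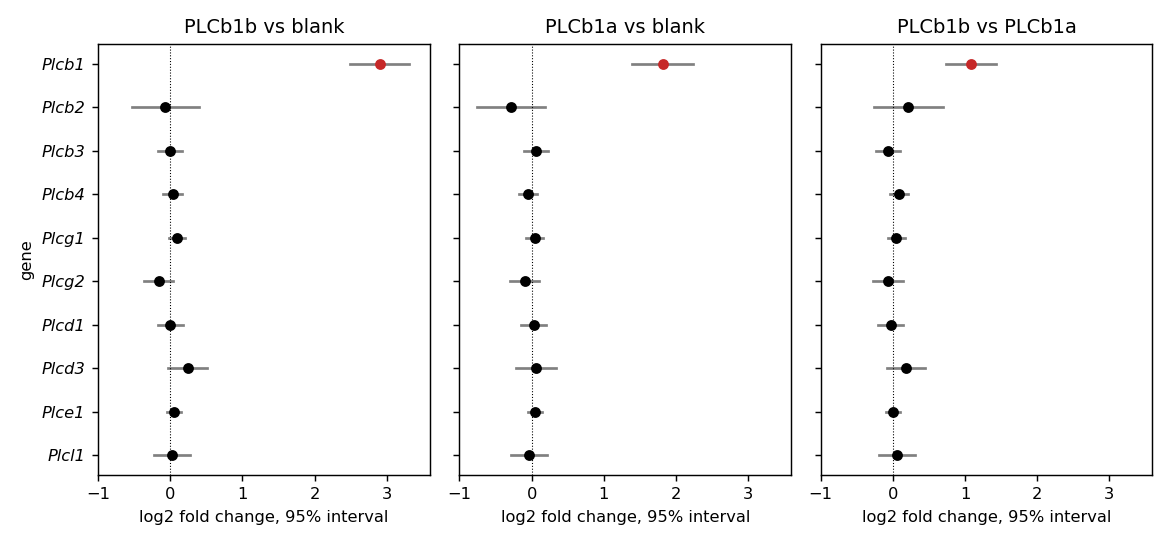
Log2 fold changes of the 10 isoforms from edgeR with 95% intervals for PLCβ1b against blank, PLCβ1a against blank and PLCβ1b against PLCβ1a (6 hearts each). Red marks an FDR below 0.1, met by Plcb1 at 2.90, 1.82 and 1.09; the other intervals all include 0.

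None of the other β isoforms was called. Each set of 3 CPM values below gives the lowest, the median and the highest of 6 hearts. Plcb4 (chr2:135741830-136013068) had 26.1 CPM in the lowest blank heart, a median of 30.2 and 33.3 in the highest. In PLCβ1a hearts the corresponding values were 25.7, 28.8 and 32.35 CPM, and in PLCβ1b hearts 27.8, 30.8 and 32.27. The 3 groups overlapped almost throughout, with log2 differences from blank of 0.03 for PLCβ1b (95% interval -0.10 to 0.16) and -0.05 for PLCβ1a (-0.18 to 0.07).

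Plcb3 (chr19:6953713-6969752) had 8.14, 9.19 and 10.05 CPM as lowest, median and highest in blank hearts. The values were 8.36, 9.64 and 11.05 in PLCβ1a and 8.15, 9.11 and 10.07 in PLCβ1b hearts. Although 3 PLCβ1a hearts were above all blank hearts, the log2 difference was 0.07 (95% interval -0.10 to 0.23), and for PLCβ1b it was 0.0010 (-0.16 to 0.17). For both genes the intervals against blank lay between -0.18 and 0.23 on the log2 scale.

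Plcb2 (chr2:118707517-118728438) had the fewest reads, with 7 to 27 counts per heart. It had 0.404, 0.792 and 1.21 CPM with blank virus, 0.564, 0.667 and 0.879 with PLCβ1a and 0.440, 0.844 and 0.920 with PLCβ1b. Its log2 differences, -0.07 for PLCβ1b (95% interval -0.53 to 0.39) and -0.28 for PLCβ1a (-0.76 to 0.19), had the widest intervals of the 10 isoforms.

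Since Plcb2 and Plcg2 are known from blood cells, markers of those cells were read beside them. The 7 leukocyte markers had summed levels of 10.7 to 13.9 FPKM with blank virus, 10.6 to 14.6 with PLCβ1a and 10.8 to 15.7 with PLCβ1b, and Cd3e, the defining marker of T cells, had 8 counts in all 18 hearts. The platelet marker Pf4 differed from blank by -0.34 for PLCβ1b (edgeR FDR 0.567) and -0.33 for PLCβ1a (edgeR FDR 0.445), while Itga2b, another platelet marker, differed by 0.20 (edgeR FDR 0.923) and 0.995 (edgeR FDR 0.319) on the log2 scale. The erythroid marker Alas2 differed by 0.22 for PLCβ1b (edgeR FDR 0.807) and 0.63 for PLCβ1a (edgeR FDR 0.186), so that all 3 tested platelet and erythroid markers had an unadjusted p under 0.05 for PLCβ1a against blank, and 1 of 3 for PLCβ1b. The summed level of the 5 platelet and erythroid markers in the table was 141 to 229 FPKM for blank, 139.5 to 298 for PLCβ1a and 150.3 to 219.6 for PLCβ1b, of which the globin Hba-a1, listed at 0 counts in every heart, took 121 to 285. Over all marker lists, for cardiomyocytes, fibroblasts, endothelial cells, leukocytes, mural cells and blood, 0 of 32 tested genes were called by edgeR in any comparison. Under the alternatives, 2 were called. The fibroblast gene Lum was called over both PLC groups by DESeq2 and by edgeR with a robust dispersion, without the filter, without blank heart 32 and without PLCβ1b heart 16, and Alas2 was called for PLCβ1a by edgeR's exact test and without the filter. The part of any of these cells in the values of Plcb2 and Plcg2 was not tested.

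Of the γ isoforms, Plcg1 (chr2:160731310-160775760) had 25.7, 27.6 and 28.6 CPM as lowest, median and highest in blank hearts. The values were 24.8, 28.1 and 30.03 in PLCβ1a and 25.4, 29.3 and 32.4 in PLCβ1b hearts. In 4 of 6 PLCβ1b hearts Plcg1 was above every blank heart and in 1 below, and the log2 difference was 0.09 (SE 0.06, 95% interval -0.02 to 0.20, edgeR FDR 0.744). Without PLCβ1b heart 16 the difference was 0.13 (edgeR FDR 0.545).

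Plcg2 (chr8:117498291-117635142) had 4.56, 5.87 and 6.97 CPM with blank virus, 4.64, 5.23 and 6.65 with PLCβ1a and 4.72, 5.13 and 5.75 with PLCβ1b. All PLC hearts lay within the blank range. The log2 differences were -0.16 for PLCβ1b (SE 0.10, 95% interval -0.37 to 0.04, edgeR FDR 0.749) and -0.09 for PLCβ1a (-0.30 to 0.11).

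Of the δ isoforms, Plcd3 varied more than Plcd1 among the hearts of each PLC group, but less among blank hearts. Their spreads were not tested against each other. Plcd1 (chr9:119071528-119093496) had 5.08, 5.89 and 6.52 CPM as lowest, median and highest with blank virus, 5.05, 5.96 and 6.62 with PLCβ1a and 5.15, 5.73 and 6.87 with PLCβ1b. Its log2 differences from blank were 0.00063 for PLCβ1b (95% interval -0.17 to 0.17) and 0.03 for PLCβ1a (-0.15 to 0.20). Its spread between hearts, 9.05 to 10.4% of the mean, was close to the 9.46 to 9.76% that counting error gives.

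Plcd3 (chr11:103070296-103101658) had the largest estimated difference after Plcb1 between PLCβ1b and blank hearts, and that difference was not called. It had 2.94, 3.19 and 3.52 CPM with blank virus, 2.75, 3.17 and 4.11 with PLCβ1a and 2.61, 3.73 and 4.91 with PLCβ1b. Of the PLCβ1b hearts 3 were above every blank heart and 1, heart 10, was below all of them. The log2 difference was 0.24 for PLCβ1b (SE 0.13, 95% interval -0.03 to 0.51, edgeR FDR 0.709) and 0.06 for PLCβ1a (-0.22 to 0.34). The spread of Plcd3 between hearts was 6.86% of the mean with blank virus, 17.6% with PLCβ1a and 22.3% with PLCβ1b, beside a counting error of 13.2%, 12.7% and 11.8%.

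Because Plcb1 itself varied among hearts of the same vector, the other isoforms were set against it within the 12 PLC hearts, in a fit with the vector as a term, a comparison that was added after the data were seen. The slope of log2 Plcd3 on log2 Plcb1 was 0.39 (SE 0.14, 95% interval 0.09 to 0.69, edgeR FDR 0.354), so that it was not called, in a fit where 0.456% of all genes were called. It had an unadjusted p under 0.05, as did 9.54% of all genes. The slope was 0.30 without PLCβ1b heart 4 (edgeR FDR 0.613), the heart highest in both genes. It was 0.43 without PLCβ1b heart 10 (edgeR FDR 0.189), which had the lowest Plcd3, and 0.52 without PLCβ1b heart 8 (edgeR FDR 0.340). The latter heart had the least Plcb1 of its group and 3.15 CPM of Plcd3. Plcd1 had a slope of 0.17 (edgeR FDR 0.628), and the other 7 isoforms lay between -0.02 and 0.13.

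**Figure D5:**
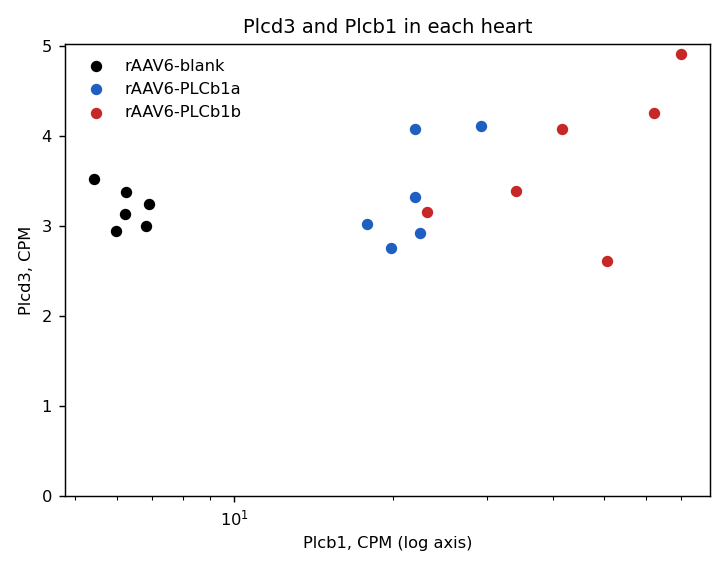
Plcd3 in CPM against Plcb1 in CPM (log axis) for 18 hearts, 6 for each vector. Plcd3 reaches 4.91 CPM in the PLCβ1b heart with 69.99 CPM of Plcb1, but PLCβ1b heart 10, with 50.7 CPM of Plcb1, has the lowest Plcd3 of all, 2.61 CPM.

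Plce1 (chr19:38524197-38785100) varied little between hearts. It had 29.95, 31.1 and 33.35 CPM as lowest, median and highest with blank virus, 30.4, 31.5 and 36.6 with PLCβ1a and 31.4, 32.3 and 35.1 with PLCβ1b. The log2 differences of 0.06 for PLCβ1b (95% interval -0.04 to 0.15) and 0.05 for PLCβ1a (-0.04 to 0.15) had the narrowest intervals of the 10. The biological coefficient of variation that edgeR estimated was 0.0494 for Plce1, the lowest of the 10, and 0.199 for Plcb1, the highest.

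Plcl1 (chr1:55405946-55754285), the isoform without lipase activity, had 2.83, 3.13 and 3.88 CPM with blank virus, 2.31, 3.42 and 3.64 with PLCβ1a and 2.56, 3.35 and 4.12 with PLCβ1b. The groups overlapped, with log2 differences of 0.02 for PLCβ1b (95% interval -0.23 to 0.27) and -0.03 for PLCβ1a (-0.29 to 0.22). Its close relative Plcl2, also without lipase activity, was higher per length than Plcl1 in blank hearts, at 2.44 ± 0.327 FPKM. Plcl2 differed from blank by 0.06 in PLCβ1b hearts (edgeR FDR 0.908) and by 0.05 in PLCβ1a hearts (edgeR FDR 0.898) on the log2 scale. The other 7 genes of the family that were looked up had too few counts to be tested, from 2 counts over all 18 hearts for Plcz1, the sperm isoform, to 107 for Plcxd2.

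Between PLCβ1b and PLCβ1a hearts directly, the 9 isoforms other than Plcb1 differed by -0.07 (Plcg2) to 0.21 (Plcb2) on the log2 scale, and all 9 intervals included 0. The median log2 fold change of the 10 isoforms was 0.03 against blank for each variant and 0.05 between the variants. Over all genes these medians were -0.00089 for PLCβ1b, -0.0018 for PLCβ1a and 0.00088 between them, with a median size of 0.07, 0.07 and 0.06.

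The surrounding pathway was followed through 97 genes in the count table, of which 81 were tested. They comprise the other family members, G proteins and Gq-coupled receptors, scaffolds and other activators, enzymes that supply the lipid substrate, inositol trisphosphate receptors and metabolism, and diacylglycerol effectors. Of the 81, 0 were called by edgeR in any of the 4 comparisons and likewise 0 by DESeq2, limma or any other alternative run, where edgeR called 0.00814 to 0.195% of all genes. At an unadjusted p under 0.05 there were 4 for PLCβ1b against blank, 7 for PLCβ1a against blank, 0 between the variants and 6 for both PLC groups against blank. These are 4.94%, 8.64%, 0% and 7.41% of the 81, beside 7.43%, 8.81%, 4.56% and 9.38% of all genes, so that none of the shares was above that over all genes. The median log2 difference from blank was 0.03 for both PLCβ1b and PLCβ1a.

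The 16 tested G proteins and Gq-coupled receptors, which act upstream of the β isoforms, had log2 differences between PLCβ1b and blank hearts from -0.16 to 0.08, with 0 of 16 at an unadjusted p under 0.05. Gnaq, which encodes Gαq, had 2.98 ± 0.166 FPKM in blank hearts. Of the 14 activators and scaffolds, Homer2, a scaffold of calcium signalling proteins, had the lowest p, with a log2 difference of -0.11 (SE 0.04, edgeR FDR 0.542). The 18 genes of lipid supply ranged from -0.14 to 0.37, with 1 at an unadjusted p under 0.05.

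Downstream, the 13 genes of inositol trisphosphate receptors and metabolism ranged from -0.10 to 0.34 between PLCβ1b and blank hearts. In PLCβ1a hearts Inpp5a, a phosphatase that removes inositol trisphosphate, differed by -0.12 (SE 0.04, edgeR FDR 0.392). Of the 19 diacylglycerol effectors, Rasgrp3, a diacylglycerol-activated exchange factor for Ras, differed by 0.20 in PLCβ1b hearts (SE 0.08, edgeR FDR 0.567). Its relative Rasgrp2, of platelets among other cells, differed by -0.22 in PLCβ1a hearts (SE 0.09, edgeR FDR 0.447).

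Over both PLC groups against blank, Rasgrp3 differed by 0.19 (SE 0.07, edgeR FDR 0.369) and Rasgrp2 by -0.19 (SE 0.07, edgeR FDR 0.394). Between the variants, Dgkb, a kinase that removes diacylglycerol, differed by 0.36 (SE 0.18) and Ipmk, an inositol phosphate kinase, by -0.14 (SE 0.07), both with an edgeR FDR of 1.0. None of these differences passed the threshold.

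Each isoform was also set beside the gene whose log2 CPM, centred on the group means, followed it best over the 18 hearts. These values describe likeness only, since the closest of 12281 genes was taken and the hearts share library depth and scaling. For Plcb4 this was Idua, a lysosomal enzyme, with a Pearson r of 0.905 (Spearman 0.899, and r of 0.871 without the 2 hearts farthest from the median). For Plcb1 it was Itgb4, an integrin subunit, with r = 0.838 (Spearman 0.730), falling to 0.643 without the 2 farthest hearts. The closest genes of the others were Gm12250 for Plcl1 (0.849), Aco1 for Plcg1 (0.848), Zfand2b for Plcg2 (0.834), Plxnb1 for Plcb2 (0.817), Cbr2 for Plcb3 (0.816), Mettl21d for Plcd3 (0.796), Ak4 for Plcd1 (0.794) and Tada3 for Plce1 (0.770). Without the 2 farthest hearts of each, these r values were lower, from 0.548 (Plcb2) to 0.774 (Plcg1). Gm12250, Mettl21d and Itgb4 had low means of 0.509, 0.667 and 0.869 CPM. None of these closest genes was another phospholipase C. This does not show whether the isoforms varied together, since only the single closest of 12281 genes was taken for each.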

How the data were processed

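Total RNA of 18 hearts was depleted of ribosomal RNA and sequenced as strand-specific pairs. The authors aligned reads to mm10 with TopHat and counted them per gene with HTSeq in union mode, and the deposited counts are not normalized. A deposited table gives FPKM, for which the submitters' processing notes name Cufflinks 2.1 beside TopHat2 2.0.10. The members and gene lists were chosen with earlier results of these data known.

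Counts were TMM-scaled and tested with edgeR 4.0.16 (R 4.3.3) by the quasi-likelihood F test with Benjamini-Hochberg adjustment, in 1 model of 3 groups, after filterByExpr with a minimum count of 10. Log2 CPM used a prior count of 2. Single values were compared by exact two-sided permutation tests over 924 arrangements. Gene positions and exon lengths came from the deposited annotation (mm10), in which no exon of a member overlapped an exon of another gene, and sequences from GENCODE M21 transcripts (GRCm38, the assembly of mm10). Each heart is 1 mouse, and no number is shared between groups. Named genes are the 10 members, the 2 listed pathway genes with the lowest p in each comparison, any listed gene that was called, and the gene most like each member. Plcl2, Gnaq, Plcz1, Plcxd2 and single marker genes were named after their values were seen.

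Alternatives were DESeq2 1.42.0, edgeR's exact test, RLE and upper-quartile scaling, no filter, only the groups compared, limma 3.58.1 on log2(FPKM + 0.1) or log2(FPKM + 1), mitochondrial genes left out, an FDR below 0.05 and each heart left out. A robust estimate of the dispersion, the slope on Plcb1, the FPKM to CPM ratio and the coding length were added after seeing the data. The edgeR steps were tested on simulated data. Tables were made with pandas 2.3.3, numpy 2.4.6 and scipy 1.17.1 under Python 3.11.15, and figures with matplotlib 3.10.9.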

Additional observations from a re-analysis of the deposited data

Results flagged for a closer look

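Of 30 sets of 6 hearts (10 isoforms in 3 groups), 2 held a heart that lay apart from the rest of its group by Dixon's criterion, where chance gives about 1 in 20. Plcb2 in PLCβ1b heart 16 was at 0.440 CPM, from 7 counts, with the next lowest heart at 0.765 and the highest at 0.920. Plcl1 in PLCβ1a heart 21, the PLCβ1a heart with the most Plcb1, was at 2.31 CPM, from 45 counts, with the next lowest at 3.20 and the highest at 3.64.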

How the results depend on the processing

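Plcb1 was called against blank in both PLC groups under every alternative and with any 1 heart left out, with log2 fold changes from 2.75 to 3.04 for PLCβ1b, 1.72 to 1.88 for PLCβ1a and 2.28 to 2.43 for both when hearts were left out. Between PLCβ1b and PLCβ1a it was also called without any 1 heart (0.93 to 1.23), but 0 members were called with limma on log2(FPKM + 0.1) (0.99, FDR 0.620), with limma on log2(FPKM + 1) (0.86, FDR 0.570) and with a robust dispersion (1.09, FDR 0.801). The share of Plcb1 in the sum, not divided by length, was 5.09% for blank, 15.8% for PLCβ1a and 27.4% for PLCβ1b. Against blank, small uncalled differences changed sign. For PLCβ1b, Plcb2 became 0.11 and 0.023 with limma (0.1 and 1 added), Plcd1 -0.061 and -0.045, and without the filter Plcb3 was -0.0028 and Plcd1 -0.0033. For PLCβ1a, limma gave -0.018 and -0.012 for Plcd1, and for both groups together 0.0056 and 0.00018 for Plcb2 and -0.040 and -0.029 for Plcd1. Between the variants, edgeR's exact test gave -0.00042 for Plce1. With hearts left out, sign changes came in these ranges. For PLCβ1b against blank they were -0.21 to 0.099 (Plcb2), -0.034 to 0.035 (Plcb3), -0.0020 to 0.065 (Plcb4), -0.052 to 0.035 (Plcd1) and -0.058 to 0.088 (Plcl1). For PLCβ1a they were -0.0049 to 0.074 (Plcd1), -0.012 to 0.11 (Plcd3) and -0.073 to 0.051 (Plcl1). Between the variants they were -0.082 to 0.0055 (Plcd1), -0.020 to 0.036 (Plce1) and -0.032 to 0.12 (Plcl1), and for both groups -0.043 to 0.023 (Plcb4), -0.015 to 0.050 (Plcd1) and -0.047 to 0.051 (Plcl1). The causes were not tested. No paired analysis was possible because no mouse number is shared between groups. Plcb2, at 7 to 27 counts, had the largest counting error of the 10.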
